A study of Mus musculus with 8 samples.

Results

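Translation factors are the proteins that bring ribosomes to mRNA, find the start codon and move the ribosome along the reading frame. Their transcripts were compared between multipotent progenitors (MPPs) of mice that express the NUP98-HOXA10hd fusion gene (NA) and of wild-type (WT) mice. The set held the genes whose symbols begin with Eif1 to Eif6, Eef1 or Eef2 and whose mean over the 8 libraries was at least 10 normalised counts. It excluded the Eif2ak kinases, Eif2s3x, Eif2s3y and the processed pseudogenes named with -ps. Of 73 genes with such symbols, 57 were members, out of 37980 rows in the table, and all 57 were among the 11451 genes tested. The 16 others were 4 Eif2ak kinases, the 2 eIF2 gamma genes, 5 pseudogenes and 5 genes under the minimum. The lowest member, Eif2b3, had a mean of 49.3 normalised counts, and the highest gene below the minimum, Eef1akmt3, had 2.56. The other 4 below it were Eif3j2, at 1.72, and Eef1a2, Eif4e1b and Eif2c5, which were at 0 in every library. The rule used the level over all libraries and did not use the difference between the groups.

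Each library was made from 1000 sorted cells with the surface phenotype Lin-CD48-ckit+Sca1+CD135+CD150-, from bone marrow of C57BL/6 mice. The 4 NA MPP libraries came from NA LSL/+; Vav-Cre mice, in which the fusion is expressed from the Rosa26 locus once Cre, driven by the Vav promoter in blood cells, removes a stop cassette. The 4 WT MPP libraries came from age-matched CD45.2 mice, and neither ages nor sexes were labelled. Libraries are named by group and number (NA1 to NA4, WT1 to WT4). The labels do not say that libraries of a group came from separate animals, so p-values measure the spread between these libraries, which may be technical.

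Initiation starts when eIF2, loaded with GTP, carries the initiator tRNA to the small ribosomal subunit, which also binds eIF1, eIF1A, eIF3 and eIF5. The eIF4 factors bind the mRNA cap and unwind the leader so that this complex can load and scan. Among them, eIF4E is repressed by the eIF4E-binding proteins until mTOR phosphorylates these proteins. The exchange factor eIF2B reloads eIF2, eIF5B joins the subunits, and eIF6 keeps free large subunits apart from small ones. In elongation eEF1A delivers aminoacyl-tRNA, the eEF1B subunits recharge eEF1A, and eEF2 translocates the ribosome unless it is phosphorylated by its kinase eEF2K. Haematopoietic stem cells are known for making less protein than most other progenitors.

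Depth, estimated from the spacing of the low values, was 3876907 to 4916988 reads per library. One shallow depth class held NA4, WT2 and WT3. The groups also differed in sex-linked transcripts: Eif2s3y was between 516 and 666 normalised counts in NA libraries and at most 0.888 in WT libraries, and Xist stood at 1.92 ± 1.0 in the NA group against 1104 ± 173 in the WT group (SD, n = 4). The effect of the fusion and of this sex-linked difference cannot be told apart in any comparison below. All 5 markers of the sorted cells that were checked (Kit, Ly6a, Flt3, Cd34 and Ptprc) were expressed, and their summed values were 8994 to 9832 in NA and 9640.0 to 9981 in WT libraries. Of these, Ly6a, which encodes the gate marker Sca1, was itself lower in NA MPPs, at 1277 ± 88.5 against 1548 ± 63.3 with no overlap (log2 fold change -0.28, limma adjusted p = 0.0257), and its part in the results was not tested. The 4 T cell markers were at 0 in all libraries. The sums of B cell markers, mostly Cd79b, were 101 to 228 in NA and 181 to 263 in WT libraries. Those of granulocyte and monocyte markers, mostly Lyz2, and of megakaryocyte markers also overlapped between the groups. In WT3, S100a8 was at 64.9 and Ngp at 53.5, against at most 21.3 and 17.8 in any other library, and the part of this in the results was not tested. The sum of 4 erythroid markers was 31.9 to 60.2 in NA and 131 to 211 in WT libraries, most of it Hbb-bt, and its part in the results was not tested. In bulk libraries, fewer cells of a type and less RNA per cell cannot be told apart. WT4 lay closest to the sum of the other 3 libraries of its group: over 1719 abundant genes its robust spread around that sum was 5.83%, against 8.29% to 12.1% for the other WT libraries. Among NA libraries this spread was lowest for NA2 (9.29%) and NA4 (9.42%) and reached 15.7%. On log2 values of the genes tested, Pearson r of NA4 with NA1, NA2 and NA3 was 0.959, 0.974 and 0.962. Among NA1, NA2 and NA3 it was 0.929 to 0.942. For WT4 it was 0.964 to 0.980 with the other WT libraries, which were at 0.933 to 0.945 among themselves. Whether WT4 or NA4 is independent of the other libraries of its group was not tested, and if one is not, an n of 4 is too high and the p-values printed with it are too small. Counts are therefore also given without NA4 and WT4.

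Upstream sequences are shown for 5 members that differed between the groups, because 2 short motifs were more frequent among promoters of the set than among those of other genes. RefSeq start sites in GRCm38.p6, which has the coordinates of mm10, were matched for 44 of the 57 members by symbol, with 58 start sites in all. The hexamer CGGAAG, the core bound by ETS factors, was searched on both strands from 250 bases before to 50 bases after each start. It was present for 26 of 44 members (59.1%), for 37.3% of 8795 tested genes with a promoter and for 18.8% of all 27025 genes. The E-box CACGTG, which reads the same on both strands, was present for 12 of 44 members (27.3%), against 12.2% of tested genes and 8.09% of all genes. TATAAA was found for 4 members, TGACGTCA for 1 and the palindromic NRF1 motif for 1. Among the 8 members past the test threshold that had a promoter, CGGAAG was present for 4 (Eef2k, Eif2b2, Eif3d and Eif4ebp2). CACGTG was present for 1 of the 8, Eef2k. Neither share was above that of the set. Each line below gives the 200 bases that end just before a start site, on the strand of the gene, with matches to CGGAAG, its reverse complement or CACGTG in capitals.
Eef2k, chr7:120842631-120842830, plus strand, GRCm38.p6: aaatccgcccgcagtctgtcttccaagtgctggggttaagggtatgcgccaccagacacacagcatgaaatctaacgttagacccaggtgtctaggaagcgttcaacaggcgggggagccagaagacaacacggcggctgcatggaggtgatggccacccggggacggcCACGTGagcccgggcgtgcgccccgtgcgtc
Eif4ebp2, chr10:61452670-61452869, minus strand, GRCm38.p6: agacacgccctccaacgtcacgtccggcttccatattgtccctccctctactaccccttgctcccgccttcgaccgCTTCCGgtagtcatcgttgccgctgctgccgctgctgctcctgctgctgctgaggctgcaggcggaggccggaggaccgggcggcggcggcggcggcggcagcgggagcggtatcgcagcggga
Eif3d, chr15:77970825-77971024, minus strand, GRCm38.p6: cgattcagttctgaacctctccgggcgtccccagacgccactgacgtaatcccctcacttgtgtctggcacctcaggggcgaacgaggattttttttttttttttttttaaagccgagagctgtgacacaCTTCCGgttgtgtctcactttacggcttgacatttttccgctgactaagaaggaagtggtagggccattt
Eif2s2, chr2:154892907-154893106, minus strand, GRCm38.p6: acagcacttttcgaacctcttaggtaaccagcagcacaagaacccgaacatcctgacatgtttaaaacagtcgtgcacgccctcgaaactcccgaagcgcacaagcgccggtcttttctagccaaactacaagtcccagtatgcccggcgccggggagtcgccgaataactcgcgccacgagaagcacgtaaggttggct
Eef1a1, chr9:78481725-78481924, minus strand, GRCm38.p6: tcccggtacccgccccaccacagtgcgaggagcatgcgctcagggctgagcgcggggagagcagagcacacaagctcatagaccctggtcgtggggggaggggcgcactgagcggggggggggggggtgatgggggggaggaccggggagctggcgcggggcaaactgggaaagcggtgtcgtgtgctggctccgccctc
The match of Eef2k to CGGAAG lay outside the stretch shown, which holds its E-box. The stretches of Eif5b, Eif4b and Eif2b2, and those of the other start sites of Eef2k, held neither motif and are not shown. Eif4ebp2 and Eif3d each held 1 ETS core, on the opposite strand, and Eif2s2 and Eef1a1 held neither motif here. These matches are letters in a window and were not tested as binding sites.

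The translation factor genes did not move as a block. Of 57 members, 10 passed the threshold (limma on log2 values, Benjamini-Hochberg adjusted p below 0.05 over all genes tested), 7 of them higher and 3 lower in NA MPPs. That is 17.5% of members, beside 17.9% of all genes tested, so the share was near the background. Over all genes, 10.1% passed as higher and 7.87% as lower. The median log2 fold change of the members was -0.02, beside -0.01 for all genes, with 25 members above 0 and 32 below. NA and WT values were fully separate for 11 members (19.3%, against 22% of all genes), 8 higher and 3 lower. Scaling the libraries to equal totals, in place of the deposited scaling, gave 6 higher and 7 lower. Without NA4 and WT4, 3 members passed, all higher, where 4.58% of all genes did. These 3 were Eif2s2, Eif3e and Eef1a1, which also passed in all 21 alternatives run.

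**Figure D1:**
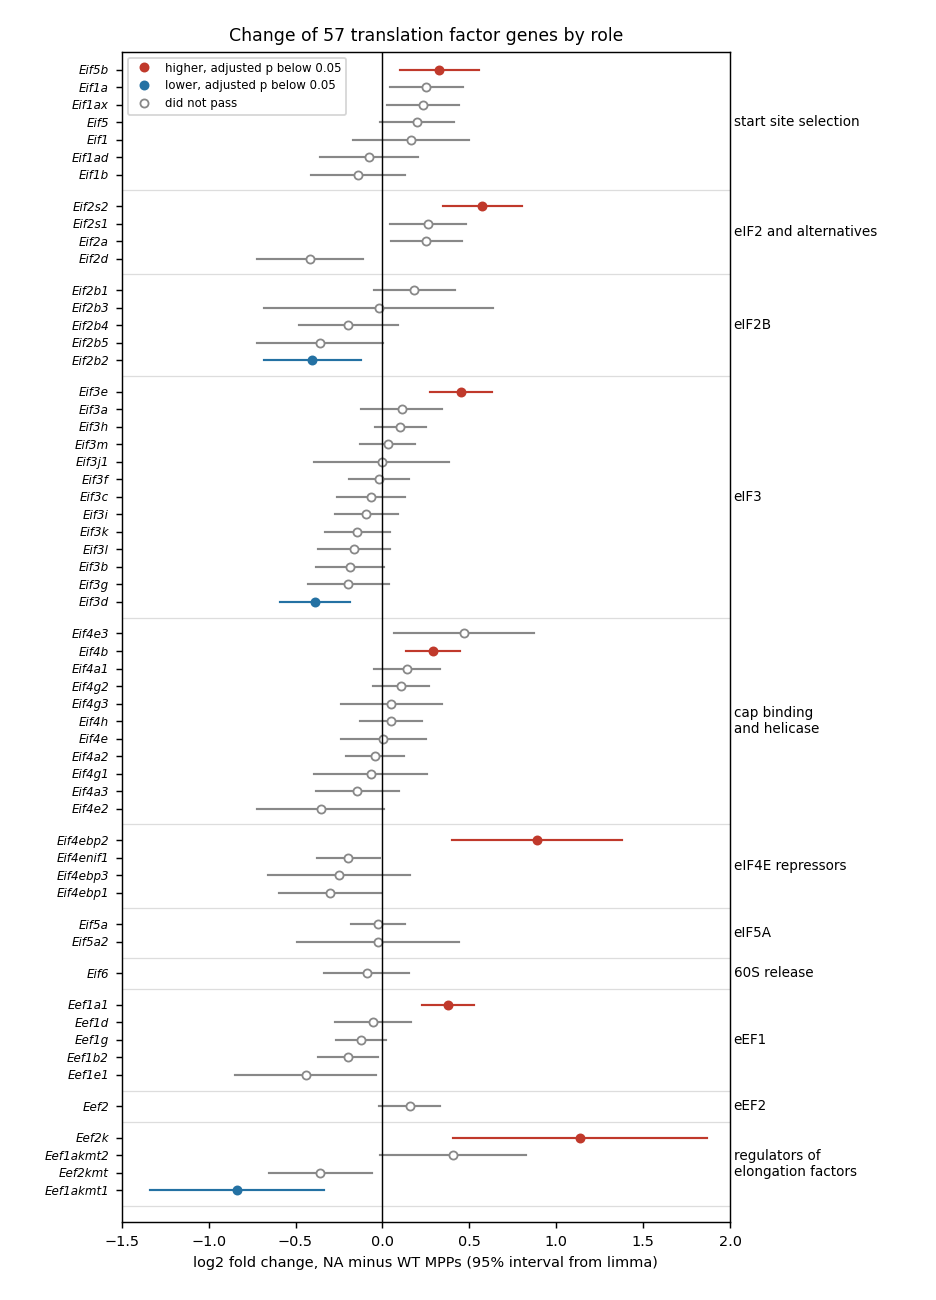
Log2 fold change (NA minus WT MPPs, x axis) of each of the 57 translation factor genes, grouped by role, with its 95% interval from limma. Filled red points are the 7 genes past the threshold as higher and filled blue points the 3 as lower, and all 47 open points lie within 0.5 of 0.

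Levels spanned a wide range. Per kb of the longest coding transcript, Eef1a1 was the most abundant member, at 48631 normalised counts per kb over the 8 libraries. It was followed by Eef1b2 at 7650, Eef1g at 3917, Eif3e at 2868, Eif1 at 2350 and Eef2 at 2060 normalised counts per kb, an order seen after the values were known. Eef1g and, as the lowest of their kind, Eif2b3 and Eif3j1 are outside the rule for named genes. Eif2b3 was the lowest member at 13.1 normalised counts per kb. The 13 eIF3 subunits, which form 1 complex, differed 137-fold in level per kb between Eif3e and Eif3j1. This last comparison uses annotated transcript lengths, so it depends on which isoform a cell uses.

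**Figure D2:**
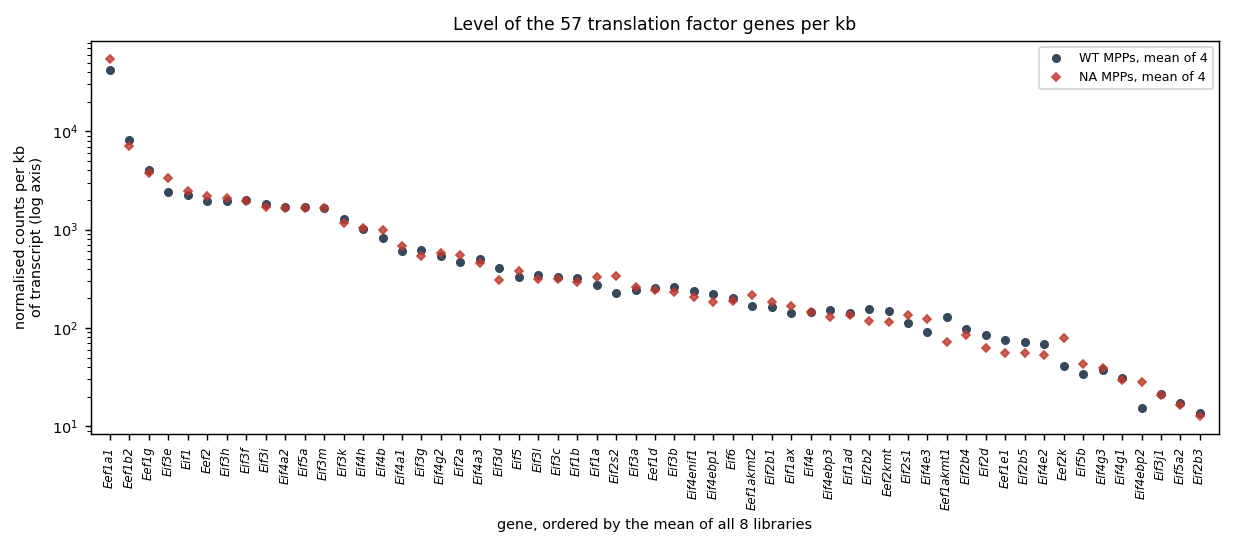
Normalised counts per kb of transcript (log y axis) for the 57 translation factor genes, ordered by their mean over the 8 libraries, with the mean of 4 WT libraries as circles and of 4 NA libraries as diamonds. Eef1a1 stands far above the other members, and the group means nearly coincide for most genes.

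Together the 57 members held 4.05 ± 0.03% of the normalised counts of NA libraries and 3.70 ± 0.12% of WT libraries (SD, n = 4 each). Eef1a1 alone held 2.15 ± 0.04% and 1.74 ± 0.05%. The other 56 members together held 1.90 ± 0.05% in NA and 1.97 ± 0.06% in WT libraries. The summed share was higher in every NA library than in any WT library with Eef1a1 included, and overlapped between the groups without it.

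Eef1a1 (ENSMUSG00000037742, chr9:78478449-78489151, minus strand), which encodes the factor that delivers aminoacyl-tRNA to the ribosome, was higher in NA MPPs. It stood at 99320, 99886, 95057 and 100041 normalised counts in NA1 to NA4 and at 71040.5, 77701, 79775 and 75135 in WT1 to WT4. All NA libraries were above all WT libraries. The means were 98576 ± 2366 and 75913 ± 3762 (SD, n = 4), and the log2 fold change was 0.38 (SE 0.07, limma adjusted p = 0.00249). Genes with transcripts of at least 200 bases at 95% identity or more to Eef1a1 numbered 10 in the annotation, and those in the table summed to 0.185% of its level. None of the eEF1B subunit genes passed. Eef1b2, which encodes the nucleotide exchange subunit and lies outside the rule for named genes, had means of 13788 ± 752 in the NA group and 15878 ± 1621 in the WT group (log2 fold change -0.20, 95% interval -0.37 to -0.03, adjusted p = 0.0996). It passed as lower when libraries were scaled to equal totals (adjusted p = 0.0222) and when the GC trend was removed (0.0319). The other eEF1 genes ran from -0.44, for the multisynthetase scaffold gene Eef1e1, named after its value was seen, to -0.05 on the log2 scale.

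Eef2, which encodes the translocase, stood at 6870, 6042, 7717 and 6249 normalised counts in NA1 to NA4 and at 5701, 6284, 6236 and 5806 in WT1 to WT4. The groups overlapped, and the log2 fold change of 0.16 (95% interval -0.02 to 0.33) did not pass (limma adjusted p = 0.206), although it passed with the GC trend removed (log2 fold change 0.30, adjusted p = 0.00387). Its kinase differed more. Eef2k (ENSMUSG00000035064, chr7:120842831-120907450, plus strand) stood at 613, 493, 495 and 465 in NA1 to NA4 and at 364, 343, 83.5 and 281 in WT1 to WT4. Every NA library was above every WT library, and WT3 lay far below the other WT libraries. The means were 517 ± 66.0 and 268 ± 128 (SD, n = 4), and the log2 fold change was 1.14 (SE 0.34, limma adjusted p = 0.0333). Without WT3 the log2 fold change was 0.65 (adjusted p = 0.00653), and without any 1 of the NA libraries the adjusted p was 0.0548 to 0.0724. The call was also lost without the low-value filter (adjusted p = 0.127) and without a variance trend (0.121). It was lost too without NA4 and WT4 (0.0929) and with depth class as a covariate (0.0611). Eef2k passed in 13 of 21 alternatives. It was the only member past 2-fold on the log2 scale of the fit. The ratio of Eef2k to Eef2 normalised counts was 0.0774 ± 0.0107 in NA and 0.0451 ± 0.0221 in WT libraries, not per length.

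Among the methyltransferases of the elongation factors, only Eef1akmt1 passed. Eef1akmt1 (ENSMUSG00000021951, chr14:57549597-57571612, minus strand), a lysine methyltransferase of eEF1A, was lower in NA MPPs. It stood at 60.7, 63.0, 85.9 and 46.1 normalised counts in NA1 to NA4 and at 138, 120.0, 80.8 and 117 in WT1 to WT4, so that NA3 lay above WT3. The means were 63.9 ± 16.5 and 114 ± 24.1, with a log2 fold change of -0.83 (SE 0.23, limma adjusted p = 0.0243). The call was lost without NA4 (adjusted p = 0.0872), WT1 (0.0758), WT2 (0.0524) or WT4 (0.0728). It was also lost without NA4 and WT4 together (0.215) and without the low-value filter (0.0579), and passed in 15 of 21 alternatives. Eef1akmt2, another lysine methyltransferase of eEF1A and the most abundant per kb of this group, was at 239 ± 24.6 and 186 ± 52.3 (log2 fold change 0.41, 95% interval -0.01 to 0.83, adjusted p = 0.166). Eef2kmt, which methylates eEF2 and was outside the rule for named genes, was at 250.1 ± 24.0 and 323 ± 54.4 (log2 fold change -0.36, adjusted p = 0.0909). It passed under scaling to equal totals (adjusted p = 0.0479) and without WT3 (0.0379), and it shares at least 200 bases with Alg1 on the opposite strand.

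The eIF2 complex held 1 gene past the threshold. Eif2s2 (ENSMUSG00000074656, chr2:154871410-154892935, minus strand), which encodes the beta subunit, stood at 790, 940.0, 841 and 860 normalised counts in NA1 to NA4 and at 558, 659, 485 and 608 in WT1 to WT4. The groups did not overlap. The means were 858 ± 62.4 and 578 ± 74.2 (SD, n = 4), and the log2 fold change was 0.58 (SE 0.11, limma adjusted p = 0.00236), and the log2 fold change ran from 0.42 to 0.64 over the 21 alternatives. Eif2s1, the alpha subunit whose phosphorylation shuts down initiation under stress, stood at 461 ± 35.7 and 384 ± 23.9. All its NA values, from 420 upward, were above all its WT values, which reached 401, yet its log2 fold change of 0.26 (95% interval 0.04 to 0.48) did not pass (adjusted p = 0.0933). The gamma subunit is encoded by the excluded pair Eif2s3x and Eif2s3y. Eif2s3x averaged 1205 ± 32.7 in the NA group and 1390.3 ± 203 in the WT group and did not pass (adjusted p = 0.196), and with Eif2s3y added the sums were 1809 ± 91.8 and 1391 ± 203. The ratio of Eif2s2 to Eif2s1 normalised counts was 1.87 ± 0.18 in NA and 1.51 ± 0.21 in WT libraries, not per length. The alternative initiator-tRNA factors differed in sign: Eif2a was at 1282 ± 146 and 1073 ± 67.1 (log2 fold change 0.25, adjusted p = 0.083), and Eif2d, outside the rule for named genes, was at 209 ± 30.4 and 279 ± 34.0 (-0.41, adjusted p = 0.0579). Eif2a passed without NA3 (adjusted p = 0.0178). Eif2d passed without NA2 (adjusted p = 0.0477), without WT2 (0.0398) and under scaling to equal totals (0.0312).

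Of the 5 subunits of eIF2B, the exchange factor that reloads eIF2, 1 passed. Eif2b2 (ENSMUSG00000004788, chr12:85219481-85226628, plus strand), the beta subunit, stood at 206, 203, 179 and 168 normalised counts in NA1 to NA4 and at 262, 262, 257 and 219 in WT1 to WT4. The groups did not overlap, and WT4 was apart from the other WT libraries. The means were 189 ± 18.7 and 250.02 ± 20.6, with a log2 fold change of -0.40 (SE 0.13, limma adjusted p = 0.0457). This call was marginal: it was lost in 13 of the 21 alternatives, with an adjusted p of 0.0573 to 0.143 when any 1 library other than NA1 was left out. Eif2b5, the catalytic subunit, was at 142 ± 24.9 and 182 ± 30.7 (log2 fold change -0.36, 95% interval -0.72 to 0.01, adjusted p = 0.161). Eif2b1, the most abundant subunit gene per kb, was at 370 ± 31.5 and 325 ± 19.0 (0.18, adjusted p = 0.263). The 5 genes together summed to 919 ± 50.2 in NA and 1004 ± 66.5 in WT libraries.

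The 13 subunit genes of eIF3, the scaffold of the initiation complex, held 1 higher and 1 lower gene. Eif3e (ENSMUSG00000022336, chr15:43250058-43282719, minus strand) stood at 4577, 5207, 4624 and 5575 normalised counts in NA1 to NA4 and at 3416, 3409, 3902 and 3841 in WT1 to WT4. All NA values exceeded all WT values. The means were 4996 ± 481 and 3642 ± 266 (SD, n = 4), and the log2 fold change was 0.45 (SE 0.08, limma adjusted p = 0.0023). Its log2 fold change became 0.28 once the GC trend was taken out (adjusted p = 0.0108). The change in Eif3d (ENSMUSG00000016554, chr15:77958998-77970813, minus strand), which encodes a subunit able to bind the cap of some mRNAs, was in the other direction. It stood at 568, 587, 639 and 563 in NA1 to NA4 and at 800, 836, 684 and 770 in WT1 to WT4, again with no overlap. The means were 590 ± 34.5 and 772 ± 64.7, with a log2 fold change of -0.39 (SE 0.09, limma adjusted p = 0.0119), and of the 21 alternatives only the fit without NA4 and WT4 lost the call (adjusted p = 0.127). Eif3a, the largest subunit, did not pass: it was at 1352 ± 218 and 1239 ± 38.8 (log2 fold change 0.11, 95% interval -0.12 to 0.34, adjusted p = 0.512). The median over the 13 genes was -0.07, and their summed share of the library was 0.497 ± 0.013% in NA and 0.501 ± 0.012% in WT.

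**Figure D3:**
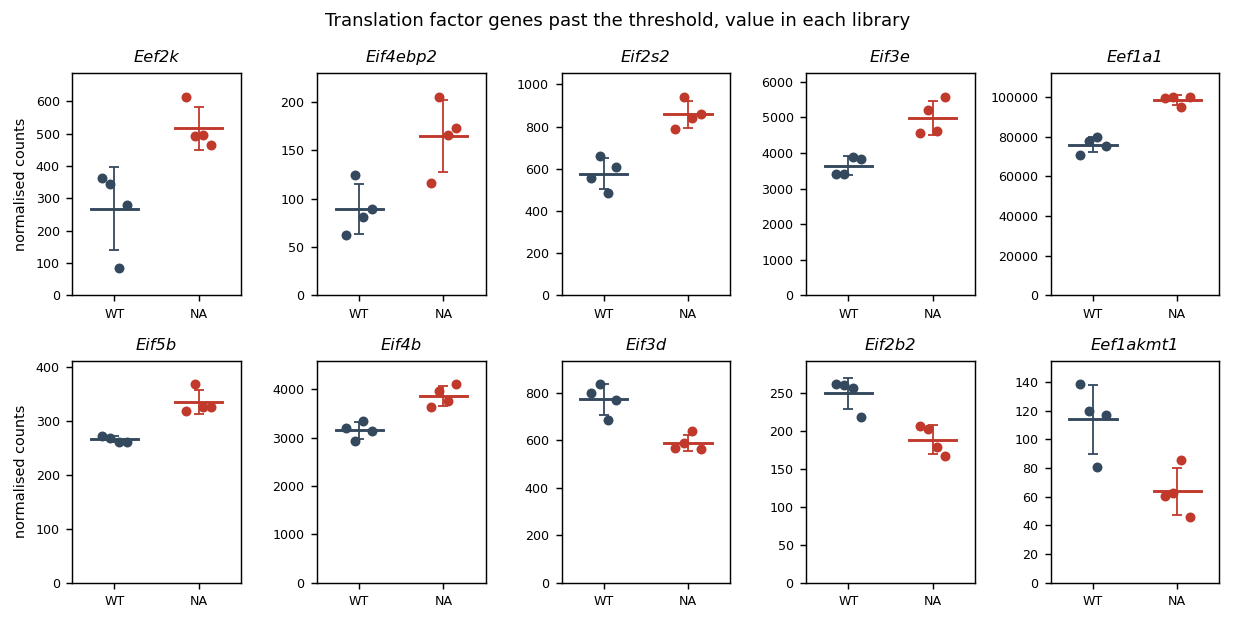
Normalised counts (y axis, from 0) in each of the 4 WT and 4 NA libraries for the 10 translation factor genes past the threshold, with the group mean as a line and its SD as an error bar. The groups overlap only for Eif4ebp2 and Eef1akmt1, and WT3 stands apart in Eef2k.

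Among the 11 genes of cap binding and RNA unwinding, Eif4b alone passed. Eif4b (ENSMUSG00000058655, chr15:102073773-102097173, plus strand), which encodes an activator of the eIF4A helicase, stood at 3633, 3973, 3755 and 4104 normalised counts in NA1 to NA4 and at 3207, 2927, 3349.6 and 3134 in WT1 to WT4. The groups did not overlap. The means were 3866 ± 212 and 3155 ± 176 (SD, n = 4), and the log2 fold change was 0.29 (SE 0.07, limma adjusted p = 0.0132). The call was lost without a variance trend (adjusted p = 0.0848) or without NA4 and WT4 (0.124). The core factors of the cap complex gave small differences with intervals on both sides of 0. Eif4e, the cap-binding protein, was at 730.5 ± 110 and 722 ± 46.6 (log2 fold change 0.00, 95% interval -0.24 to 0.25, adjusted p = 0.984), a sign that turned in 9 alternatives. Eif4g1, the scaffold, was at 166 ± 13.6 and 175 ± 28.5 (log2 fold change -0.07, 95% interval -0.39 to 0.26). Its sign turned with the GC trend removed (0.03) and without WT1 (0.02). The helicase gene Eif4a1 was at 1200.2 ± 109 and 1087 ± 66.0 (0.14, 95% interval -0.05 to 0.33). Its paralogue Eif4a2, the most abundant gene of the group per kb, was at 4527 ± 433 and 4655 ± 157 (log2 fold change -0.04, 95% interval -0.21 to 0.12). Eif4a2 passed as lower with the GC trend removed (-0.22, adjusted p = 0.0222), and its sign turned without NA3 (0.0040). The highest value of the group that did not pass was that of Eif4e3, a cap-binding relative of Eif4e outside the rule for named genes, at 314 ± 71.0 and 227 ± 57.5 (log2 fold change 0.47, adjusted p = 0.0985). It passed without WT3 (adjusted p = 0.0344).

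The repressors of eIF4E gave opposite signs. Eif4ebp2 (ENSMUSG00000020091, chr10:61428491-61452661, minus strand), which encodes an eIF4E-binding protein controlled by mTOR, stood at 116, 205, 165 and 172 normalised counts in NA1 to NA4 and at 62.1, 125, 80.8 and 89.7 in WT1 to WT4. The groups overlapped, since NA1 lay below WT2. The means were 165 ± 36.8 and 89.3 ± 26.2, with a log2 fold change of 0.89 (SE 0.23, limma adjusted p = 0.0156). The call was lost in 4 of 21 alternatives: without NA2 (adjusted p = 0.0525), without NA4 (0.0562), without NA4 and WT4 (0.116) and without the low-value filter (0.0516). Eif4ebp1, its better known paralogue, was at 364 ± 76.5 and 443 ± 35.4 (log2 fold change -0.30, 95% interval -0.60 to -0.01, adjusted p = 0.143), and passed as lower without NA3 (adjusted p = 0.0203). The ratio of Eif4ebp2 to Eif4ebp1 normalised counts was 0.468 ± 0.149 in NA and 0.200 ± 0.050 in WT libraries, not per length. Eif4enif1, which carries eIF4E into the nucleus, was at 765 ± 52.2 and 876 ± 28.2 with no overlap (-0.20, adjusted p = 0.128), and passed under scaling to equal totals (adjusted p = 0.0416).

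Of the 7 genes of start site selection and subunit joining, 1 passed. Eif5b (ENSMUSG00000026083, chr1:37998010-38055579, plus strand), the GTPase of subunit joining, stood at 318, 368, 327 and 327 normalised counts in NA1 to NA4 and at 273, 268, 262 and 262 in WT1 to WT4. The groups did not overlap, and the WT values lay close together. The means were 335 ± 22.6 and 266 ± 5.6, with a log2 fold change of 0.33 (SE 0.11, limma adjusted p = 0.0476). It passed in 7 of 21 alternatives, and when 1 library was left out it passed only without NA1, the adjusted p being 0.0522 to 0.132 without each of the others. The annotated span of Eif5b overlaps that of Rev1 on the opposite strand by 2794 bases. Reads within that stretch may not be told apart, since the paper describes amplified cDNA and the Nextera XT kit and no strand-specific step. Eif1ax on the X chromosome, which encodes eIF1A, was at 863 ± 79.7 and 734 ± 60.9 (log2 fold change 0.23, adjusted p = 0.112). Eif1a, a second eIF1A gene outside the rule for named genes, was at 949.6 ± 117 and 792.6 ± 28.8 with no overlap. Its log2 fold change of 0.25 did not pass (limma adjusted p = 0.0866), but it passed without NA1. Eif5, the GTPase activator of eIF2, was at 1548 ± 157 and 1348 ± 156 (0.20, adjusted p = 0.177). Eif1, which guards start codon choice, was at 3250.2 ± 457 and 2964 ± 777 (0.16, 95% interval -0.17 to 0.50, adjusted p = 0.504), and its sign turned without WT1 (-0.0088). Genes that share at least 200 bases at 95% identity with Eif1 summed to 7.07% of its level.

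Eif5a and Eif6 showed no change that could be detected with 4 libraries a group. Eif5a, which resolves stalled ribosomes and carries hypusine, was at 2401 ± 153 and 2439 ± 75.3 (log2 fold change -0.02, 95% interval -0.18 to 0.13, limma adjusted p = 0.852), and Eif6 was at 285 ± 24.6 and 303 ± 17.6 (-0.09, 95% interval -0.33 to 0.15, adjusted p = 0.621). Both signs turned with the GC trend removed.

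The 10 members known for a terminal oligopyrimidine (TOP) sequence, through which mTOR and LARP1 control translation together with ribosomal protein mRNAs, were counted apart. Of these, 3 were higher (Eef1a1, Eif3e and Eif4b) and none passed as lower by limma, where 4 were below an unadjusted p of 0.05 in either direction, and their median log2 fold change was 0.11. Over all genes tested, 17.9% passed and 32.5% were below an unadjusted p of 0.05. Of the other 47 members, 4 were higher and 3 lower, with a median of -0.04. The difference between these lists was not tested, and no transcript start was checked for a TOP sequence.

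Transcript GC content moved with the log2 fold change across the members (Pearson r = -0.36, Spearman rho = -0.49 over 57 genes, which share the same 8 libraries and are not independent). Over 11167 tested genes with a value the same measures were -0.19 and -0.27. The median GC content was 47.4% for the 7 higher, 54.6% for the 3 lower and 50.1% for the 47 other members. After the GC trend of each library was removed, 7 members were higher and 5 lower: Eif2b2 and Eif5b no longer passed, and Eef1b2, Eef1e1, Eef2 and Eif4a2 did.

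**Figure D4:**
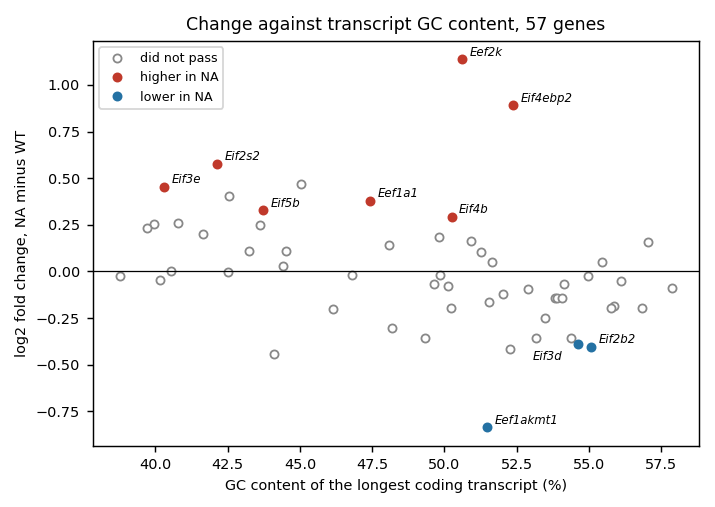
Log2 fold change (NA minus WT, y axis) against GC content of the longest coding transcript in percent (x axis) for the 57 translation factor genes, with the 10 past the threshold named. Eif2s2, Eif3e and Eif5b lie at low GC content and Eif3d and Eif2b2 at high GC content, while Eef2k and Eif4ebp2 lie in the middle.

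Other genes of translation were taken from 9 lists with 65 genes, of which 64 were tested. Of these, 11 were higher and 4 lower, or 23.4% beside 17.9% of all genes tested. NA and WT values were fully separate for 23, or 35.9% beside 22% of all genes. The lists were chosen with earlier results of these data known, so these shares are not an independent comparison with all genes. The genes that modify eEF2 and eIF5A held 3 lower genes of 8 and no higher gene, and all 3 belong to the pathway that makes diphthamide, the modified histidine of eEF2. Dph2, a subunit of the enzyme of the first step, stood at 117, 71.4, 66.5 and 92.1 normalised counts in NA1 to NA4 and at 197, 231, 230.0 and 191 in WT1 to WT4. Its log2 fold change was -1.31 (SE 0.19, limma adjusted p = 0.000384). Dph1, its partner subunit, stood at 49.997, 67.0, 76.2 and 77.8 in NA1 to NA4 and at 147, 147, 141 and 113 in WT1 to WT4. Its log2 fold change was -1.01 (SE 0.20, adjusted p = 0.00312). Both genes were lower in every NA library than in any WT library and passed in all 21 alternatives, although Dph1 shares 1193 bases with Ovca2 on the same strand. Dph5, the methyltransferase of the pathway, was at 221 ± 15.2 and 305 ± 30.8 (-0.46, adjusted p = 0.0181), and did not pass without NA4 (adjusted p = 0.0503), WT4 (0.0708) or NA4 and WT4 (0.160), or with replicate block and depth class (0.0801). Dph3, Dph6 and Dph7 did not pass, at log2 fold changes of 0.46, -0.17 and 0.49.

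**Figure D5:**
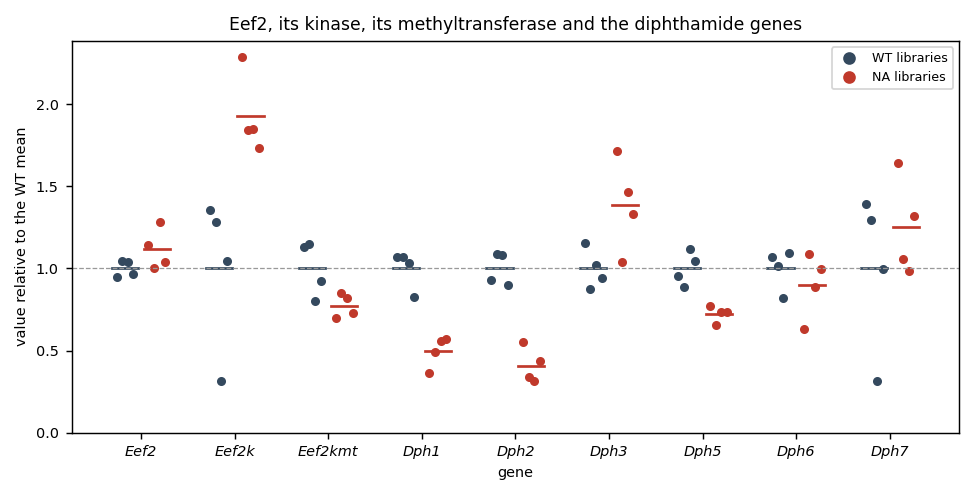
Value of each library relative to the WT mean (y axis, from 0) for Eef2, its kinase Eef2k, its methyltransferase Eef2kmt and 6 diphthamide genes, with WT libraries in grey, NA libraries in red and group means as lines. Eef2k is above and Dph1, Dph2 and Dph5 are below WT in all NA libraries, while the groups overlap for Eef2, Eef2kmt, Dph3, Dph6 and Dph7.

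Of 9 genes for poly(A) binding and translational repression, 5 were higher and none lower by limma. Over all genes tested, 10.1% passed as higher and 7.87% as lower. Of the 9 genes, 6 were below an unadjusted limma p of 0.05, beside 32.5% of all genes tested. Larp1, the binder of TOP sequences, was at 320 ± 14.6 and 197 ± 72.5 (0.77, SE 0.21, adjusted p = 0.0223), with WT3 lowest at 113, and the log2 fold change was 0.53 without that library. The call was lost in 5 of 21 alternatives, with an adjusted p of 0.0561 without NA2, 0.0545 without NA4, 0.0926 without NA4 and WT4, 0.0803 without the low-value filter and 0.0799 without a variance trend. The poly(A)-binding protein genes Pabpc4 and Pabpn1 and the inhibitor gene Paip2b had log2 fold changes of 0.48, 0.38 and 0.41. Pabpc4 passed in 17 of 21 alternatives, Pabpn1 in 19 and Paip2b in 15. Of single libraries, leaving out WT4 ended the call of Pabpc4 (adjusted p = 0.0502), and leaving out NA4 (0.0635), WT1 (0.0752) or WT4 (0.057) that of Paip2b. Among scanning and reinitiation factors, Ddx3x, an RNA helicase, was at 3000 ± 313 and 2212 ± 267 (0.44, adjusted p = 0.00866), and Denr at 455 ± 51.4 and 335 ± 38.9 (0.44, adjusted p = 0.0222). Denr passed in 14 of 21 alternatives. It was lost without NA4 (adjusted p = 0.0826), WT1 (0.0517), WT3 (0.0586) or NA4 and WT4 (0.158), without a variance trend (0.0623), with replicate block and depth class (0.0773) and with the GC trend removed (0.110). Ddx3x passed in 18 of 21 and was lost with the GC trend removed (log2 fold change 0.27, adjusted p = 0.0542), without a variance trend (0.064) and without NA4 and WT4 (0.0687). Its Y-linked relative Ddx3y was at 515 ± 175 in NA libraries and at most 0.888 in WT libraries.

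The remaining lists each held at most 1 gene past the threshold. Tsfm, a mitochondrial elongation factor gene, stood at 168, 161, 154 and 142 normalised counts in NA1 to NA4 and at 56.8, 92.9, 64.9 and 55.9 in WT1 to WT4. Its log2 fold change was 1.22 (SE 0.19, limma adjusted p = 0.000786), and it passed in all 21 alternatives. Aimp1, a scaffold of the multisynthetase complex, was at 850.3 ± 55.8 and 637 ± 41.8 (0.42, adjusted p = 0.00659), and was lost only without NA4 and WT4 (adjusted p = 0.0811) among 21 alternatives. Rps6kb1, the S6 kinase gene of the mTOR arm, was at 463 ± 21.2 and 345 ± 21.6 (0.42, adjusted p = 0.0103). That call was lost in 3 of 21 alternatives: with the GC trend removed (log2 fold change 0.24, adjusted p = 0.105), with replicate block and depth class (0.0556) and without NA4 and WT4 (0.144). Ppp1r15b, which targets a phosphatase to eIF2 alpha, was at 379 ± 59.1 and 258 ± 28.1 (0.54, adjusted p = 0.0142). Hbs1l, a ribosome rescue factor, was lower at 264 ± 18.7 and 359 ± 34.9 (-0.44, adjusted p = 0.0173). Ppp1r15b and Hbs1l each passed in 18 of 21 alternatives. They were lost without NA4 (adjusted p = 0.0612 and 0.0528), without NA4 and WT4 (0.113 and 0.109) and with replicate block and depth class (0.0556 and 0.0795). The 2 selenocysteine factor genes did not pass.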

How the data were processed

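The authors made the MPP libraries from amplified cDNA with the Nextera XT kit, and no strand-specific step is described. They quantified RNA-seq reads with RSEM and used DESeq2, on genome build mm10 per the labels. Versions, annotation release and strand use in counting are not given in the sources used here. The deposited values, named raw counts, are a normalised signal: RSEM estimates divided by 1 size factor per library. Of the low values, the only ones checked, 98.2% to 98.7% were whole multiples of a step of 0.888 to 1.18, within 0.01. So limma 3.58.1 in R 4.3.3 was run, two-sided, on log2(value + 1), NA against WT, over 11451 genes with at least 10 in at least 4 of 8 libraries, with Benjamini-Hochberg adjustment and a threshold of 0.05. Symbols, coordinates, lengths and GC content came from GENCODE M21 (rows without a symbol held 0.779% of the signal) and promoters from RefSeq. Members and gene lists were chosen with earlier results of these data known. Named were members past the threshold, the most abundant per kb in each role and 15 fixed by role; exceptions are marked. The fit was also run on simulated data that gave every gene the same added spread, and no result here rests on that run. Alternatives changed the filter, pseudocount, scaling, variance trend, covariates and libraries. Some listed genes are not reported here by name.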

Additional observations from a re-analysis of the deposited data

Results flagged for a closer look

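In each group of 4 libraries, the highest and lowest value of each named translation factor gene and of the estimated depth was compared with the rest: a gap to the nearest other library that took up nearly the whole range of the group, by the 95% critical value of Dixon, was noted. Of 58 groups, 5 met this, where chance gives about 2.9. Eef1a1 in NA3 was 95057 normalised counts, below 99320 to 100041 in the other NA libraries, and still above all WT libraries. Eif4e in NA1 was 567, below 768 to 797 in the other NA libraries. Eif2b5 in WT3 was 228, above 162 to 169.6 in the other WT libraries. Eif2b2 in WT4 was 219, below 257 to 262 in the other WT libraries, and without WT4 its log2 fold change was -0.46 (limma adjusted p = 0.0635). Estimated depth in NA4 was 3887856 reads, below 4909390 to 4916988 in the other NA libraries.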

How the results depend on the processing

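The deposited values limit what can be run: planned count tests on recovered reads (edgeR and DESeq2) were not run, because the values are not whole reads. With 10 members past the threshold as reported, 6 passed without a variance trend (4 higher) and 3 without NA4 and WT4 (3 higher, 0 lower; 524 of all genes). The 7 calls lost there were Eef1akmt1, Eef2k, Eif2b2, Eif3d, Eif4b, Eif4ebp2 and Eif5b. Leaving out 1 library gave 5 (without NA4) to 10 members, 4 (without NA2 or NA4) to 7 higher and 1 (without NA4, WT1 or WT4) to 3 lower. Scaling to equal totals gave 7 lower members and moved their median log2 fold change from -0.024 to -0.093 and that of all genes to -0.079; removing the GC trend gave 5 lower. Causes of these shifts were not tested. The other translation genes, 15 as reported, numbered 4 without NA4 and WT4 (2 higher, 2 lower) and 9 to 18 with 1 library left out (7 to 13 higher, 2 to 6 lower; each lowest without NA4). Their higher genes numbered 6 without a variance trend, and their lower genes 8 with equal totals, 7 without the GC trend and 2 with replicate block and depth class.

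Some small log2 fold changes turned sign. Without 1 library, Eif4e ran from -0.042 to 0.12, Eif1 from -0.0088 to 0.31, Eif5a from -0.058 to 0.017, Eif4a2 from -0.10 to 0.0040 and Eif4g1 from -0.16 to 0.023. Eif4e was also -0.064 with equal totals, -0.0093 without NA4 and WT4, -0.026 with replicate block and depth class and -0.17 without the GC trend. Removing the GC trend gave Eif3a -0.0086, Eif5a 0.092, Eif4g1 0.032 and Eif6 0.069, and without NA4 and WT4 Eif5a was 0.0047. None of these passed in the fit concerned.

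Whether the replicate numbers pair the libraries was not settled. The correlations of same-numbered deviations from the group means were small and positive, at 0.087, 0.027, 0.013 and 0.158. NA1 and NA4 matched their own number best, and NA2 and NA3 other numbers. With the replicate block, 8 members passed (6 higher, 2 lower), Eif2b2 and Eif5b being lost, and 18 other translation genes; with block and depth class 8 members and 10 other translation genes passed (8 of these 10 higher), the calls of Ppp1r15b, Hbs1l, Denr, Pabpc4, Paip2b, Rps6kb1 and Dph5 being lost.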
